A study of Mus musculus with 22 samples.

Results

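This account covers the open-chromatin peaks that lie near the starts of long noncoding RNA genes in nuclei captured from mouse liver during diet-induced steatohepatitis. A peak belongs to the set when the deposited annotation assigns it to a noncoding RNA gene whose symbol does not begin with Mir or Snor and when it lies at most 5000 bp from that gene's start. The rule gave 1556 of 68827 peaks, which fall at 816 genes. The furthest peak inside the limit lay 4989 bp from its start and the nearest peak outside it lay at 5006 bp.

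The assay was ATAC-seq, which uses a transposase to cut and tag open DNA, and it was run on immunoprecipitated nuclei of 22 male HEP-INTACT mice. INTACT captures nuclei through a tag carried in chosen cells; the sources used here do not give the promoter that drives the tag or the strain and age of the mice. The first arm received an FPC diet, named for its fructose, palmitate and cholesterol, for 20 weeks. The other received a CDAHFD, a high-fat diet that lacks choline and supplies defined amino acids, for 7 weeks; the controls of each arm ate a low fat diet over the same period. Diet-fed mice were split by liver histology into mild and advanced disease: fat and inflammation were high in both, and significant fibrosis was present in the advanced mice alone. Each arm has 4 control, 4 mild and 3 advanced mice, with 1 library per mouse. Fibrosis defined the advanced groups, so a difference between mild and advanced mice is one between histological classes and not between times. The arms differ in both diet and length of feeding. These cannot be told apart wherever a difference between diets is given below. The p-values below measure the spread between these mice; no label gives a batch.

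Long noncoding RNAs are transcripts that are not translated and that are made, like messenger RNAs, mostly by RNA polymerase II. Some act in the nucleus on the chromatin around their own gene, some scaffold nuclear bodies, some are precursors of small nucleolar RNAs, and for many it is the act of transcription or the DNA element under the start that is known or thought to matter. Many share a start region with a protein-coding gene read in the other direction, and open chromatin at such a region cannot be assigned to either transcript. An ATAC-seq peak reports access to DNA and not the amount of RNA made from it.

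Sequence under 7 start peaks is shown first because these starts carry the main patterns: a strong gain, 2 imprinted antisense RNAs, a nuclear RNA that opened, a lost peak, the start opposite a master liver factor, and a wide-open start with small changes. Each is the part of the peak inside the RefSeq promoter window (250 bases before to 50 after the annotated start), on GRCm38.p6, printed 5′ to 3′ along the strand of the noncoding RNA. Capitals mark matches, on either strand, to the AP-1 motif TGANTCA, the TEAD motif GGAATG or the GC box GGGCGG. The Ttc39aos1 stretch (chr4:109406208-109406405, minus strand) holds 1 AP-1 match, the Airn stretch (chr17:12741190-12741360, plus strand) 1 GC box, the Gm10390 stretch (chr5:120139405-120139513, minus strand) 1 GC box and the Snhg8 stretch (chr3:123508371-123508570, minus strand) 6 GC box and TEAD matches. The Kcnq1ot1 (chr7:143296503-143296702, minus strand), Malat1 (chr19:5802623-5802768, minus strand) and Hnf4aos (chr2:163541672-163541824, minus strand) stretches hold no match.
Ttc39aos1: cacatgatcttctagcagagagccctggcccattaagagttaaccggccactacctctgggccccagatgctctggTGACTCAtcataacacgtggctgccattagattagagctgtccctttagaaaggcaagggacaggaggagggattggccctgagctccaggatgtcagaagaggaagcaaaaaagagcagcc
Airn: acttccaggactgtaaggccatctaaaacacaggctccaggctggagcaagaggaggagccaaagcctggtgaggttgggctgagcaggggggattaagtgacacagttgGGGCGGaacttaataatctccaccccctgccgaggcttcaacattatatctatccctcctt
Kcnq1ot1: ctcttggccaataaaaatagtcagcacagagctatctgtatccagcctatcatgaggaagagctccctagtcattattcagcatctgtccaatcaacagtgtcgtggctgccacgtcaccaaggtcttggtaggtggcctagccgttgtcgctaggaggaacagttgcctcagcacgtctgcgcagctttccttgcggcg
Malat1: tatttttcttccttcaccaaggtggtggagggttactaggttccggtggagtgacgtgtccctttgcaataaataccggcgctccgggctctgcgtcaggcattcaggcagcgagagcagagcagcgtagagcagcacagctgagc
Gm10390: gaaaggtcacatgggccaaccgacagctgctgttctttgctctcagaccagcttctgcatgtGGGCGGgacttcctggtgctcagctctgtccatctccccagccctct
Hnf4aos: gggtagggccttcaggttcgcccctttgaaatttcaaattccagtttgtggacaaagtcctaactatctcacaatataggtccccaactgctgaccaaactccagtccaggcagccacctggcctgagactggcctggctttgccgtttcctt
Snhg8: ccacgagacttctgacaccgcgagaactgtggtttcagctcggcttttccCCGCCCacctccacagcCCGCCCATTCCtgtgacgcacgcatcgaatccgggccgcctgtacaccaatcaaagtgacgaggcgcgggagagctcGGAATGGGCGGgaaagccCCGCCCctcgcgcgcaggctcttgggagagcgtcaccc

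Libraries held between 3785066 and 9328963 counts over all peaks, and levels are given below as CPM, the counts per 1000000 counts of the scaled library total. Peaks within 1000 bp of the starts of the hepatocyte markers Alb, Apoa1, Cps1, Hnf4a and Tat summed to between 173 and 231 CPM in every library; Ttr had no such peak. Of these 7 hepatocyte peaks none rose, while 3 fell in FPC advanced mice (summed level 173 to 208 CPM, against 207 to 227 in controls), 1 in CDAHFD advanced mice and 2 in the mild mice of each arm. Macrophage, endothelial and lymphocyte markers had no peak near a start for any of 6 genes each, and of 6 stellate markers Reln had 2 peaks, which both fell in FPC mild mice and passed the test in no other diet group. Of 6 cholangiocyte markers, Cldn7, Epcam, Krt7, Sox9 and Spp1 had 6 peaks, while Krt19 had none; all 6 rose in advanced mice of both arms. Their summed level was 19.1 to 31.6 CPM in FPC controls, 33.3 to 40.2 in FPC mild and 79.2 to 105 in FPC advanced mice, and 18.5 to 26.7, 32.7 to 50.2 and 54.3 to 73.4 CPM in the CDAHFD arm. This level moves with disease class in both arms, as some but not all of the peaks below do. The part of these markers in the results was not tested. In bulk nuclei, a change in the share of nuclei of one type and a change in access per nucleus cannot be told apart.

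The 1556 peaks cover a wide range of settings. RefSeq records a gene type for 813 of the 816 genes: 799 are long noncoding RNAs and 8 are now protein-coding. Of the rest, 2 are small guide RNAs, 1 each is the RNA part of RNase P, RNase MRP or telomerase, and 1, Gm38670, is recorded as a microRNA. A single peak stood at 415 genes and several at 401, with 10 at Neat1 as the maximum. By position, 864 peaks lay within 1000 bp of the start and 692 lay further out; 680 were annotated as promoter, 462 as intron and 236 as intergenic. A total of 609 peaks (39.1%) lay inside the body of a protein-coding gene, and 221 genes had a protein-coding start within 1000 bp in the RefSeq table. The median peak had 11.2 CPM, against 9.66 over all peaks, with 14.6 CPM within 1000 bp of the start and 8.58 CPM beyond. The peaks took between 2.51% and 2.72% of all counts in a library. On the FPC diet this share was 2.56% ± 0.035 (SD, n = 4) in controls and 2.67% ± 0.023 (n = 3) in advanced mice, and on the CDAHFD 2.52% ± 0.009 (n = 4) and 2.67% ± 0.044 (n = 3); the 2 groups did not overlap on either diet.

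In advanced disease, more of these peaks opened than closed on both diets. In FPC advanced mice against their controls, 466 peaks (29.9%) rose and 352 (22.6%) fell at an adjusted p under 0.05 in edgeR's quasi-likelihood test over all peaks; of all 68827 peaks, 27.0% rose and 28.6% fell. In CDAHFD advanced mice, 454 peaks (29.2%) rose and 367 (23.6%) fell, against 26.6% and 29.1% of all peaks. So the share that rose stood a little above that of all peaks, and the share that fell stood below it. With upper-quartile scaling the shares were 35.5% and 19.3% on the FPC diet (30.96% and 24.73% of all peaks) and 33.7% and 20.4% on the CDAHFD (30.2% and 25.2%). The order among all peaks thus turned with the scaling, as it also did with RLE scaling and DESeq2, while the set had more gains than losses under each. The median log2 fold change was 0.06 on both diets, against -0.03 and -0.04 over all peaks; upper-quartile scaling gave 0.14 and 0.13 against 0.04 and 0.03. More than 2-fold changes that passed the test numbered 159 up (10.2%) and 112 down (7.20%) on the FPC diet, and 177 up (11.4%) and 115 down (7.39%) on the CDAHFD. Both shares were below those of all peaks, which were 11.1% and 9.78% on the FPC diet and 12.0% and 9.32% on the CDAHFD. At the level of genes, 347 had at least 1 peak that rose and 238 at least 1 that fell on the FPC diet, with 330 and 253 on the CDAHFD. No such count was made over the genes of all peaks. Values of advanced and control libraries did not overlap at 803 peaks (51.6%) on the FPC diet and 811 (52.1%) on the CDAHFD, against 53.1% and 53.3% of all peaks.

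**Figure D1:**
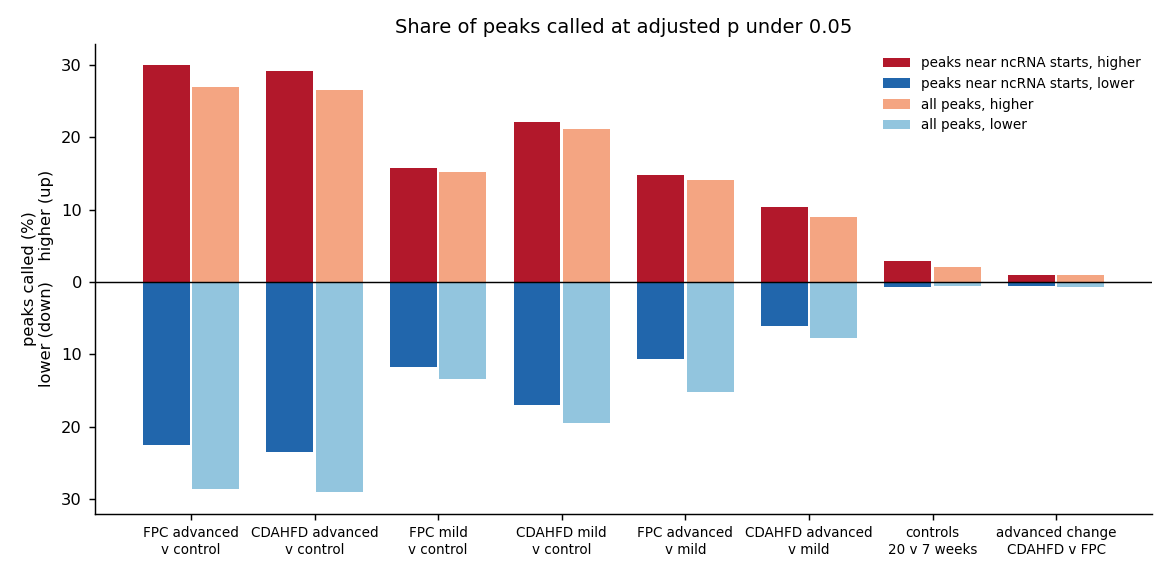
Percent of peaks called higher (up) or lower (down) at an adjusted p under 0.05 in each comparison, for the 1556 peaks near noncoding RNA starts (dark) and all 68827 peaks (light). The advanced against control bars reach 29.9% and 29.2% higher for the noncoding RNA starts, and the comparisons of the 2 controls and of the 2 diets are near 0.

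The balance of opened and closed peaks changed sign with distance from the start. Within 1000 bp of a noncoding RNA start, 34.7% of 864 peaks rose and 16.7% fell on the FPC diet, and 31.9% rose and 17.5% fell on the CDAHFD. Between 1000 and 5000 bp the order turned: of 692 peaks, 24.0% rose and 30.1% fell on the FPC diet, and 25.7% and 31.2% on the CDAHFD. Protein-coding starts gave much the same pair of values: 38.1% higher and 12.3% lower within 1000 bp on the FPC diet, and 22.7% and 30.3% between 1000 and 5000 bp. Peaks assigned to noncoding RNA genes beyond 5000 bp, which are outside the set, fell in larger number than they rose, with 22.7% higher and 38.7% lower on the FPC diet and 23.8% and 40.1% on the CDAHFD. The 129 peaks that lay in a repeat element (8.29% of the set, 14% of all peaks) fell more often than they rose, with 20.9% higher and 40.3% lower on the FPC diet. Starts paired with a protein-coding start within 1000 bp had 379 peaks, of which 32.7% rose and 17.4% fell on the FPC diet; the 253 arranged head to head gave 34.0% and 17.8%. Of the 884 peaks at starts with no such partner in the RefSeq table, 29.1% rose and 25.1% fell on the FPC diet. On the CDAHFD 242 rose and 242 fell. Fewer of these unpaired peaks lay within 1000 bp of their start (49.2%, against 72.8% of paired ones). Within 1000 bp, 33.3% of unpaired peaks rose and 18.9% fell on the FPC diet, against 36.2% and 12.3% of paired ones. Between 1000 and 5000 bp the shares were 24.9% and 31.2%, against 23.3% and 31.1%. For 293 further peaks no promoter window was matched.

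**Figure D2:**
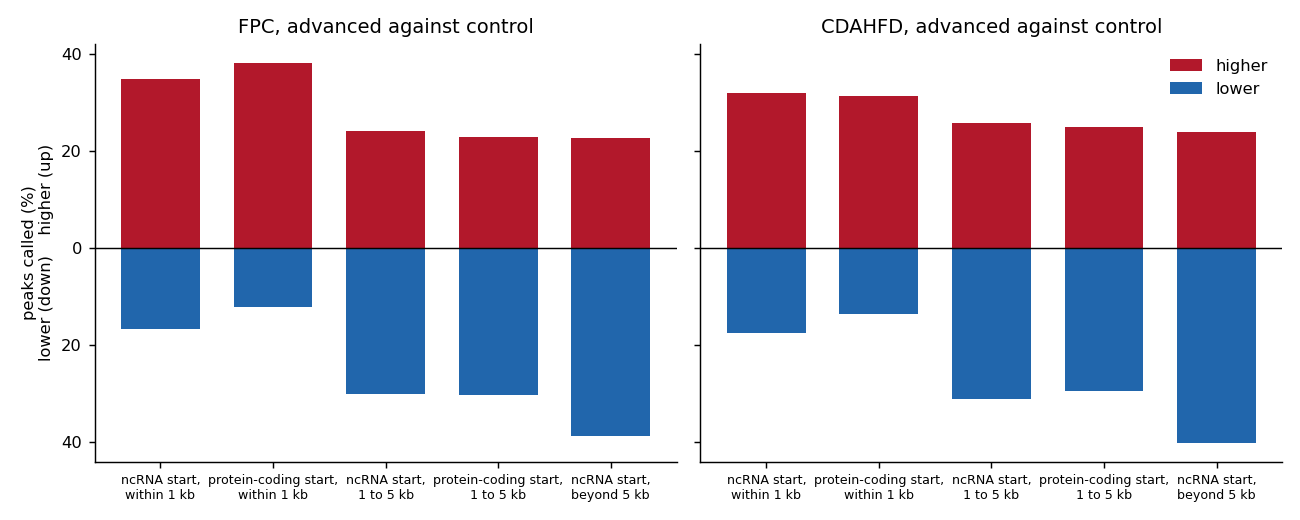
Percent of peaks called higher (red, up) or lower (blue, down) in advanced against control mice, by distance from noncoding RNA or protein-coding starts, for FPC (left) and CDAHFD (right). Peaks within 1000 bp of noncoding RNA starts show 34.7% higher and 16.7% lower on FPC, and beyond 1000 bp the lower share exceeds the higher one.

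The classes of gene name also differed in balance. Predicted genes with Gm symbols had 409 peaks, of which 23.7% rose and 29.3% fell on the FPC diet and 23.7% and 31.5% on the CDAHFD. Clone-based Rik genes had 837 peaks, with 33.0% higher and 22.3% lower on the FPC diet and 30.1% and 22.2% on the CDAHFD. Genes named as opposite-strand transcripts had 115 peaks, 25.2% higher and 15.7% lower on the FPC diet, and genes with other symbols had 154, 29.9% and 14.3%. These shares are descriptions, and neighbouring peaks of one gene share their source: 62 pairs of neighbouring peaks overlapped.

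In the set, 154 peaks gained access on both diets, with no overlap of advanced and control libraries in either arm and a level above the median of all peaks. How many of all peaks meet this rule was not counted. The largest mean gain among the 154 was at the start of Ttc39aos1, also known as lincRNA-EPS. This RNA is known for holding back immune genes in macrophages and for survival of red cell precursors. The peak is at chr4:109406205-109406405, 48 bp upstream of the start and inside the body of Ttc39a. FPC controls had 1.44, 2.65, 2.17 and 3.04 CPM, mild mice 21.0, 19.2, 18.8 and 17.8 CPM, and advanced mice 29.2, 33.0 and 25.5 CPM. CDAHFD controls had 4.51, 2.82, 1.30 and 2.04 CPM, mild mice 25.5, 27.1, 25.9 and 23.3 CPM, and advanced mice 33.8, 36.5 and 36.8 CPM. The start was near closed in every control, open in every mild mouse and more open still in every advanced mouse, with no overlap between groups of an arm. The advanced change was 3.66 ± 0.22 (log2, SE; adjusted p = 1.1e-12) on the FPC diet and 3.75 ± 0.18 (1.1e-14) on the CDAHFD, and the mild change was 3.05 and 3.26. The stretch of this peak printed above is the one with the AP-1 match.

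The next peaks had the same steps. At 5730435O14Rik (chr10:41565221-41565421, in the body of Ccdc162) FPC controls had 2.54 to 3.71 CPM, mild mice 10.2 to 16.9 and advanced mice 23.9 to 31.4, and CDAHFD libraries had 2.08 to 4.51, 17.7 to 19.6 and 31.6 to 32.9 CPM. The changes in advanced mice were 3.20 ± 0.19 and 3.45 ± 0.17. At 9030616G12Rik (chr10:128968378-128968578, in a SINE repeat, 7390 bp from Mettl7b) they were 2.92 ± 0.15 and 3.17 ± 0.13. In both peaks the 3 disease classes stayed apart in each arm.

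The imprinted RNA Airn, which is made from the paternal chromosome and whose transcription silences Igf2r on that chromosome, gained access at both of its peaks. Its start peak (chr17:12741189-12741389) had 3.61, 1.59, 1.84 and 2.03 CPM in FPC controls, 7.41, 6.82, 12.3 and 11.5 in mild mice and 15.7, 10.3 and 11.6 in advanced mice. In the CDAHFD arm it had 3.67, 2.52, 3.56 and 2.54 CPM, then 8.81, 8.13, 8.90 and 10.7, then 13, 12.6 and 9.79. Both disease groups were above the controls without overlap, and mild and advanced mice overlapped with each other. The advanced changes were 2.47 ± 0.26 (adjusted p = 2e-08, edgeR) and 1.92 ± 0.23 (7e-08); the peak 831 bp upstream changed by 2.48 ± 0.18 and 2.23 ± 0.16. Both lie in the body of Igf2r, and Airn starts 28395 bp from the Igf2r start.

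The other peaks of this kind were 4930444M15Rik (3.55 on the FPC diet, 2.36 on the CDAHFD), A630001O12Rik (2.42 and 2.52), Gm13056 (2.11 and 2.08, 104 bp upstream of its start), A930001C03Rik (1.95 and 2.18), Gm17746 (2.16 and 1.90) and A030001D20Rik (1.69 and 1.73, in the body of Rasip1). Gm17746 set the advanced class apart: FPC controls had 4.33 to 7.36 CPM and mild mice 6.61 to 10.8, while advanced mice had 19.4, 33.1 and 23.0. Its mild change did not pass the test on the FPC diet (0.62 ± 0.29, adjusted p = 0.11, edgeR), other than with the spread from the compared groups alone (0.63, 0.035), and reached 0.70 ± 0.25 (0.026) on the CDAHFD, a call that was lost without CDAHFD_Control replicate 3 or 4 or CDAHFD_Mild replicate 3 (0.48 to 0.57). The peak lies 36105 bp from Id2, which encodes an inhibitor of helix-loop-helix factors.

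**Figure D3:**
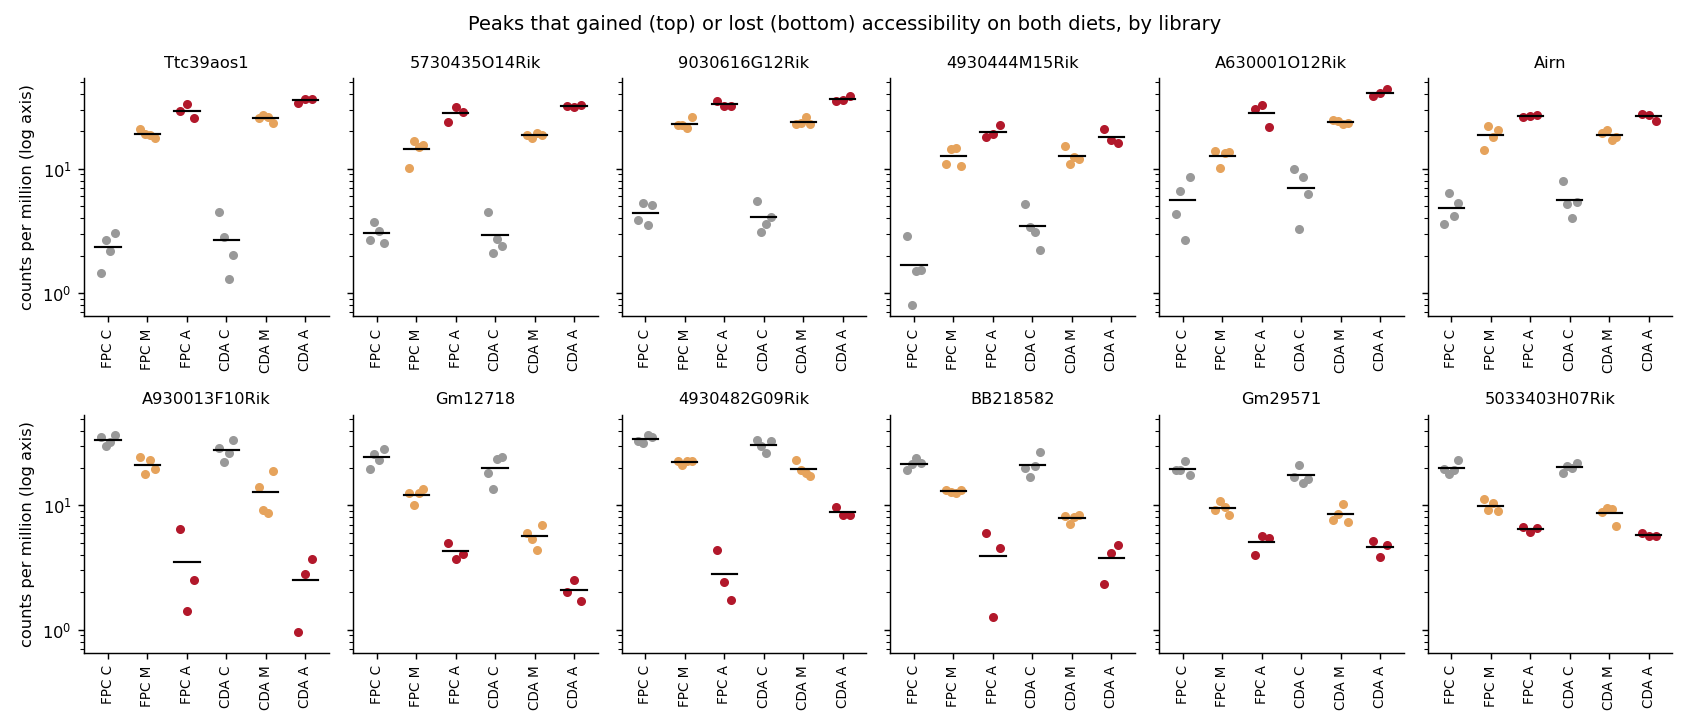
CPM (log axis) in each library for the 6 largest gains (top) and losses (bottom) on both diets; C, M and A are control, mild and advanced mice, points are libraries and lines are group means. The 4 FPC controls of Ttc39aos1 sit between 1.44 and 3.04 and the 3 advanced mice between 25.5 and 33.0, and the lost peaks of A930013F10Rik fall most in advanced mice.

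Of 117 peaks of the set that lost access by the same rule, also not counted over all peaks, A930013F10Rik had the largest mean loss. Its peak (chr8:22636945-22637145, 236 bp upstream of the start, in the body of Polb, the repair polymerase beta) had 35.4, 29.9, 32.6 and 36.8 CPM in FPC controls, 24.4, 17.8, 23.3 and 19.6 in mild mice, and 6.52, 1.41 and 2.52 in advanced mice. The CDAHFD arm had 29.2, 22.4, 26.7 and 33.8 CPM, then 14, 9.18, 8.74 and 19, then 0.956, 2.82 and 3.69. The 3 classes did not overlap in either arm, and most of the fall separated mild from advanced mice. The advanced changes were -3.31 ± 0.32 and -3.56 ± 0.33, and from mild to advanced mice it fell by 2.65 ± 0.33 and 2.46 ± 0.35 on the log2 scale.

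The intron peak of 4930482G09Rik (chr3:153149005-153149205) fell on both diets but much further on one. FPC controls had 33.0, 31.8, 37.0 and 35.5 CPM, mild mice 22.6, 21.2, 22.8 and 22.8, and advanced mice 4.34, 2.40 and 1.73. CDAHFD controls had 33.9, 30.0, 26.7 and 33.1 CPM, mild mice 23.3, 19.3, 18.3 and 17.2, and advanced mice 9.66, 8.45 and 8.37. Controls overlapped between the 2 arms, as did mild mice, and the advanced mice of the 2 arms did not overlap. The advanced changes were -3.62 ± 0.18 and -1.79 ± 0.14, and their difference of 1.83 ± 0.24 passed the test (adjusted p = 0.00018, edgeR).

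The other lost peaks fell in advanced mice of both arms. In FPC mild mice Gm12440, Gm10390 and Zfp652os did not pass the test, as given below. Gm12718, in an LTR repeat, changed by -2.52 ± 0.21 on the FPC diet and -3.28 ± 0.23 on the CDAHFD, and BB218582 by -2.49 and -2.53. Gm29571 shares its start region with Smlr1, whose start lies 114 bp away in the other direction; it changed by -1.96 and -1.89. Gm35986 lies 389 bp from the start of Elovl6, a fatty acid elongase, and its peak fell from 21.9 to 35.8 CPM in FPC controls to 8.21 to 15.0 in advanced mice (-1.22 ± 0.19) and from 23.3 to 31.4 to 6.27 to 9.65 CPM in the CDAHFD arm (-1.91 ± 0.20). At 5033403H07Rik the changes were -1.63 and -1.79, at Gm12440 -1.22 and -2.20, at Gm10390 -1.40 and -1.32, and at Zfp652os -0.89 and -1.82. None of these 20 peaks lost its call in either arm when any 1 library was left out. They were picked from the same libraries for size and lack of overlap, which made this outcome likely beforehand, so it is no separate support.

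Named noncoding RNAs were read at the peak nearest each start, where gains are common: of all protein-coding peaks within 1000 bp of a start, 38.1% rose on the FPC diet and 31.3% on the CDAHFD. Among imprinted genes, 3 of 9 had a peak; all 3 rose on the FPC diet and 2 on the CDAHFD. Kcnq1ot1, a paternal antisense RNA that silences the Cdkn1c and Kcnq1 cluster, had 12.5, 13.5, 15.2 and 18 CPM in FPC controls and 19.9, 22.1 and 21.6 in advanced mice, and 10.9, 10.8, 12.6 and 12.4 against 21.7, 22.7 and 21.6 on the CDAHFD. Advanced mice were above controls on both diets, by 0.52 ± 0.13 (adjusted p = 0.0016, edgeR) and 0.91 ± 0.12 (6.3e-07). Peg13, a paternal RNA in an intron of Trappc9, rose by 0.45 ± 0.15 on the FPC diet and had a change of 0.00 ± 0.15 on the CDAHFD.

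Among nuclear and X-linked RNAs, 7 of 10 had a peak. At the peak nearest the start, 2 rose on the FPC diet, 3 on the CDAHFD and none fell. Over all 21 peaks of these genes, 4 rose and 1 fell on the FPC diet (27.0% and 28.6% of all peaks). On the CDAHFD 10 rose and 1 fell (26.6% and 29.1%). The fall was at 1 of 2 Jpx peaks, by more than 2-fold on both diets. Malat1, an abundant RNA of nuclear speckles, had 7.70, 6.09, 5.86 and 7.35 CPM at its start in FPC controls and 9.19, 9.20 and 9.44 in advanced mice. CDAHFD controls had 3.67, 5.78, 5.21 and 4.92 CPM, and advanced mice 12.7, 14.4 and 10.5. Neither arm overlapped; the changes were 0.47 ± 0.18 (adjusted p = 0.031, edgeR) and 1.35 ± 0.17 (1.5e-07), and their difference did not pass the test (adjusted p = 0.066). The FPC call was lost without FPC_Advanced replicate 2 or 3, or without FPC_Control replicate 2 or 3 (0.40 to 0.47). Malat1 had 2 further peaks upstream that rose on both diets, at 904 bp (0.63 ± 0.13 and 1.19 ± 0.12) and 1085 bp (0.90 ± 0.17 and 1.32 ± 0.16), and a peak at 2464 bp inside the gene that did not pass the test.

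Neat1, the scaffold of paraspeckles and a neighbour of Malat1, had 10 peaks. None passed the test on the FPC diet, where the changes ran from -0.35 to 0.33. With the spread from the compared groups alone, the Neat1 peaks 518 bp (0.27) and 1299 bp (0.32) upstream rose on that diet too, and with upper-quartile scaling those at 518 bp (0.32) and 4813 bp (0.40). On the CDAHFD 5 rose, all upstream of the start: 140 bp (0.55 ± 0.11), 328 bp (0.69 ± 0.13), 518 bp (0.74 ± 0.12), 1299 bp (0.82 ± 0.16) and 4813 bp (0.66 ± 0.17). For those 5 Neat1 peaks the adjusted p of the difference between diets lay between 0.055 and 0.54, so a difference was not shown. Tug1, whose start is 623 bp from that of Morc2a, rose by 0.38 ± 0.08 and 0.22 ± 0.07; the CDAHFD call of Tug1 was lost without CDAHFD_Advanced replicate 2 (0.15). Firre, an X-linked RNA that organises nuclear contacts, rose on the CDAHFD (0.42 ± 0.10) and had -0.11 ± 0.11 on the FPC diet. Without FPC_Advanced replicate 1, Ftx rose on the FPC diet (0.28) and the Neat1 peak 3992 bp upstream fell (-0.55).

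Of 9 RNAs tied to growth or p53, 4 had a peak, and at the peak nearest the start 1 rose, on both diets. This was Trp53cor1 (lincRNA-p21), a p53 target that lies 11797 bp from the cell cycle inhibitor Cdkn1a. Its start had 18.8, 17.5, 20.4 and 17 CPM in FPC controls, 23.6, 30.5, 25.2 and 28.4 in mild mice and 31.4, 29.0 and 29.7 in advanced mice. In the CDAHFD arm it had 22.9, 22.5, 22.5 and 19.5 CPM in controls, 29.0, 32.4, 24.3 and 21.0 in mild mice and 30.6, 34.0 and 25.7 in advanced mice. Advanced mice were above all controls on both diets (0.69 ± 0.13, adjusted p = 8.9e-05, and 0.45 ± 0.12, 0.0024, edgeR), and the mild mice spread between. At the nearest peak Dleu2, Lncpint and Pvt1 did not pass the test, with changes between -0.07 and 0.33. Dleu2 passed it there without FPC_Control replicate 3 (0.25) or CDAHFD_Advanced replicate 1 (0.23). Over all 13 peaks of the 4 genes, 5 rose and 1 fell on the FPC diet (27.0% and 28.6% of all peaks). On the CDAHFD 6 rose and 1 fell (26.6% and 29.1%). Dleu2 had 6 peaks, of which 2 rose and 1 fell on the FPC diet and 3 rose and 1 fell on the CDAHFD. Of 2 Pvt1 peaks, 1 rose on both diets.

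Of 19 developmental RNAs, 2 had a peak. Hnf4aos is read in the other direction from Hnf4a, the gene of a main hepatocyte transcription factor, and its start peak lies in the Hnf4a body; the Hnf4aos start is 5434 bp from an Hnf4a start. It had 17.6, 17.2, 16.2 and 19.8 CPM in FPC controls and 11, 10.9 and 11 in advanced mice, and 13.8, 13.2, 17.4 and 10.9 against 8.92, 9.94 and 10.5 on the CDAHFD. Advanced mice were below all controls, with changes of -0.68 ± 0.14 (adjusted p = 0.00024, edgeR) and -0.52 ± 0.14 (0.0026). Of the other 4 Hnf4aos peaks, 1 fell, on the CDAHFD (3136 bp into the gene, -0.40 ± 0.11), and the most open one (52.9 CPM on average) had -0.16 ± 0.07 and -0.05 ± 0.06. Bvht had 0.48 ± 0.24 on the FPC diet and rose by 0.93 ± 0.23 on the CDAHFD; without FPC_Advanced replicate 1 the FPC change passed too (0.67).

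Host genes of small nucleolar RNAs, whose introns carry guides for ribosomal RNA modification, had 17 genes with a peak. At the peak nearest the start, 11 rose and none fell on the FPC diet, 7 rose and 1 fell on the CDAHFD, and 5 rose on both; the medians were 0.37 and 0.20. For all protein-coding peaks within 1000 bp of a start the medians were 0.19 and 0.10. Over all 28 peaks of the host genes, 12 rose (42.9%) and 3 fell (10.7%) on the FPC diet, against 27.0% and 28.6% of all peaks. On the CDAHFD 9 rose (32.1%) and 5 fell (17.9%), against 26.6% and 29.1%. Of these host peaks 71.4% lay within 1000 bp of the start. Protein-coding peaks within that distance had 38.1% higher and 12.3% lower on the FPC diet, and 31.3% and 13.6% on the CDAHFD. Upper-quartile scaling gave 14 and 11 hosts that rose at the nearest peak, and RLE scaling 12 and 10. Snhg18 changed most: 2.65, 1.85, 1.34 and 1.52 CPM in FPC controls, 8.02, 8.21 and 9.60 in advanced mice, and 3.81, 1.78, 2.61 and 2.21 against 8.07, 7.46 and 6.67 on the CDAHFD. It was low in every control and rose by 2.24 ± 0.27 (adjusted p = 1.2e-07, edgeR) and 1.5 ± 0.23 (4e-06). The start of Snhg18 is 151 bp from that of Sema5a, which is read the other way. The rest moved by less: Epb41l4aos by 0.69 ± 0.14 and 0.44 ± 0.13, Snhg7 by 0.55 ± 0.13 and 0.43 ± 0.13, and Snhg10 by 0.41 ± 0.07 and 0.30 ± 0.07. Several calls of small size rested on single libraries. The FPC call of Gas5 (0.21 ± 0.08) was lost without FPC_Control replicate 1 or 2 or FPC_Advanced replicate 1 or 2 (0.16 to 0.20), and that of Snhg15 (0.24 ± 0.08) without FPC_Control replicate 1 or FPC_Advanced replicate 2 (0.18 to 0.19). The CDAHFD call of Snhg3 (0.37 ± 0.14) was lost without CDAHFD_Advanced replicate 2 (0.29), and that of Snhg9 (0.20 ± 0.08) without that library or CDAHFD_Control replicate 1, 2 or 3 (0.10 to 0.21). In the other direction, Snhg17 passed the test without FPC_Advanced replicate 1 on the FPC diet (0.59) and without CDAHFD_Advanced replicate 1 or CDAHFD_Control replicate 3 on the CDAHFD (0.54), and Snhg3 passed it on the FPC diet without FPC_Advanced replicate 3 (0.45).

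Snhg4 was the single peak of the set that passed the test in opposite directions on the 2 diets. It had 16.8, 14.6, 15.1 and 15.2 CPM in FPC controls, 17.9, 21.5 and 21.4 in advanced mice, and 17.8, 20.5, 20.7 and 22.4 against 17.3, 15.7 and 15.3 on the CDAHFD. The FPC advanced mice lay above their controls and the CDAHFD advanced mice below theirs. The changes were 0.40 ± 0.12 (adjusted p = 0.0053) and -0.33 ± 0.11 (0.012), with a difference of -0.72 ± 0.16 (0.019, edgeR). The controls of the arms also differed at Snhg4, by -0.40 ± 0.11 (0.043), a call that was lost in 7 of the 8 fits that left out 1 control (-0.44 to -0.35), with DESeq2 and with the spread from the controls alone (-0.41 to -0.40). The CDAHFD call was lost without CDAHFD_Control replicate 4 (-0.27) or CDAHFD_Advanced replicate 3 (-0.29) and with the spread from the compared groups alone (-0.30), and the difference between diets without FPC_Advanced replicate 3 (-0.69).

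The 6 small structural RNA genes, taken by symbol, met the rule although their RNAs are not long; RefSeq records 1 of them, Vaultrc5, as a long noncoding RNA. At the peak nearest the start, 5 rose and none fell on the FPC diet and 4 rose on the CDAHFD. Over all 13 peaks of these genes, 6 rose and 2 fell on each diet, against 27.0% and 28.6% of all peaks on the FPC diet and 26.6% and 29.1% on the CDAHFD. With the spread from the compared groups alone, Scarna17 fell on the FPC diet (-0.42). On the CDAHFD Vaultrc5 rose too under 7 of 8 other settings with all libraries kept (0.18 to 0.25). The exception, no filter, gave the same fit as the one used here, since every peak passed the filter. Rpph1, the RNA of RNase P, had 31.8, 32, 34.8 and 30.4 CPM in FPC controls against 51.3, 51.8 and 44.2 in advanced mice, and 33.9, 31.3, 34.7 and 35.5 against 48.2, 56.3 and 53.4 on the CDAHFD. The groups did not overlap (0.60 ± 0.09, adjusted p = 1.7e-06, and 0.63 ± 0.08, 1.3e-07, edgeR). The Rpph1 start lies 92 bp from that of Parp2. Rmrp rose by 0.27 ± 0.09 and 0.31 ± 0.09, Terc by 0.39 ± 0.13 and 0.33 ± 0.13 and Scarna2 by 0.56 ± 0.12 and 0.30 ± 0.11. Leaving out single libraries ended the FPC calls of Rmrp (FPC_Control replicate 1 or FPC_Advanced replicate 1, 0.21 to 0.23) and Terc (FPC_Advanced replicate 2, 0.34) and the CDAHFD calls of Terc (CDAHFD_Advanced replicate 2 or 3, CDAHFD_Control replicate 4, 0.28 to 0.32) and Scarna2 (CDAHFD_Advanced replicate 3, CDAHFD_Control replicate 3, 0.26 to 0.27). Without CDAHFD_Control replicate 3 or 4, Vaultrc5 passed it on the CDAHFD (0.21 and 0.19).

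**Figure D4:**
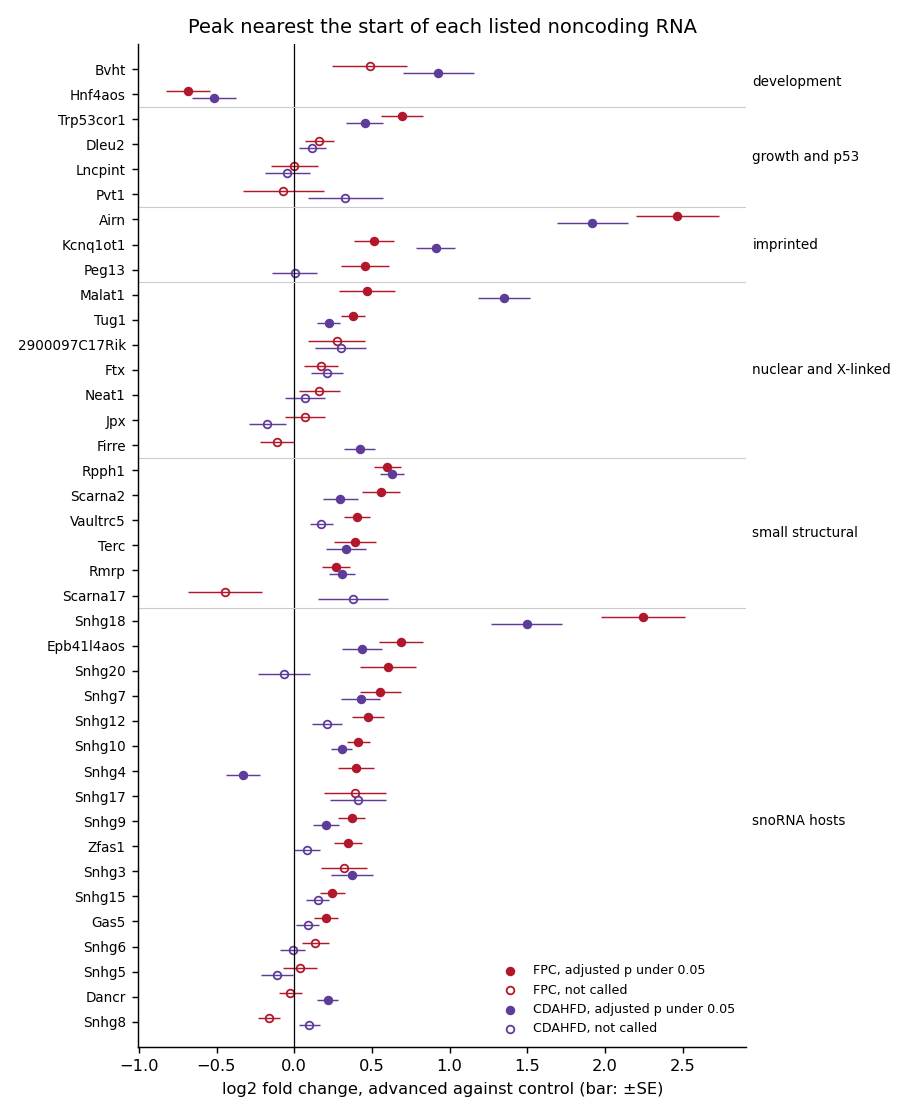
Log2 fold change (advanced against control, bar ± SE) at the peak nearest the start of each listed noncoding RNA, FPC in red and CDAHFD in purple, filled where the adjusted p is under 0.05. Airn and Snhg18 lie furthest to the right, Hnf4aos lies at -0.68 and -0.52, and Snhg4 is filled on both sides of 0.

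Peaks that passed the test on both diets moved the same way, with 1 exception out of 621. Across the 1556 peaks the FPC and CDAHFD advanced changes had a Pearson correlation of 0.913 (0.911 over all peaks); the arms have separate mice and controls, and the value is a description over peaks that share libraries. Of the 466 peaks higher on the FPC diet and the 454 higher on the CDAHFD, 349 were higher on both (22.4% of the set, 20.5% of all peaks). Of the 352 and 367 lower peaks, 271 were lower on both (17.4%, against 21.9%). Another 397 passed on 1 diet (25.5%, against 26.2%) and 538 on neither (34.6%, against 31.3%). The single opposite peak is 0.0643% of the set, against 0.237% of all peaks. The difference of the 2 changes passed the test at 15 peaks (0.964%) in the direction of CDAHFD and at 9 (0.578%) in the other, against 0.978% and 0.667% of all peaks. Without FPC_Advanced replicate 3 the former was 0.578%, against 0.513% of all peaks. Without CDAHFD_Advanced replicate 1 the latter was 0.321%, against 0.315%. With a spread estimated from the compared groups alone the 2 were 0.450% and 0.386%, against 0.382% and 0.307% of all peaks.

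**Figure D5:**
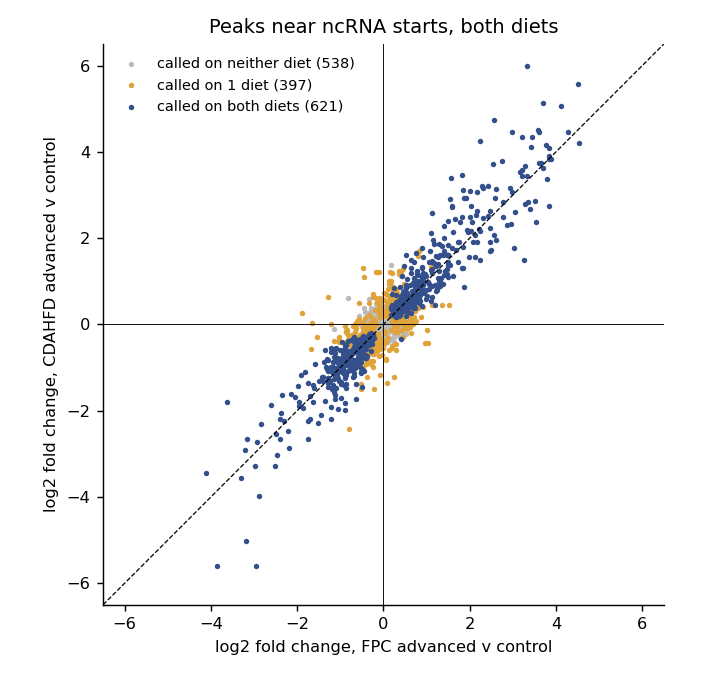
Log2 fold change in advanced against control mice for each of the 1556 peaks, FPC on the horizontal and CDAHFD on the vertical axis; the dashed line marks equal change and colours give the number of diets on which a peak was called. The 621 peaks called on both diets lie along the line, with a correlation of 0.913 over all 1556 points.

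The peaks with the largest difference between diets were mostly called on 1 diet. Gm16157, in the body of Fam169b, had 10.3, 11.1, 10.4 and 11.9 CPM in FPC controls and 3.17, 3.25 and 2.36 in advanced mice (-1.89 ± 0.30), but 6.77, 8.90, 11.1 and 3.56 against 10.8, 7.46 and 9.51 on the CDAHFD (0.27 ± 0.25). The FPC groups were apart and the CDAHFD groups overlapped; the difference was 2.16 ± 0.39 (adjusted p = 0.0046, edgeR). Gm16796 had -0.44 ± 0.27 on the FPC diet and rose by 1.09 ± 0.19 on the CDAHFD (difference 1.53, 0.017). Another peak of A930001C03Rik, 2821 bp upstream of the start, rose on both diets but further on the CDAHFD (1.84 ± 0.21 and 3.12 ± 0.20, difference 1.27, 0.032).

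On the other side, Chrna1os fell on the CDAHFD alone by the test (-0.23 ± 0.19 and -1.49 ± 0.19, difference -1.26, adjusted p = 0.016, edgeR). Its CDAHFD controls had 13.4, 16.3, 11.1 and 9.84 CPM and its advanced mice 5.42, 4.97 and 2.98. Gm32885 had 0.25 ± 0.22 and -1.21 ± 0.22 (difference -1.46, 0.016). At 9030625G05Rik and F630040K05Rik the FPC mice rose, by 1.04 ± 0.28 and 1.00 ± 0.19, with differences of -1.47 (0.043) and -1.13 (0.025). The differences of Gm16157, 4930482G09Rik and Gm32885 passed the test whichever library was left out. That of Gm16796 was lost without FPC_Control replicate 3 (1.31), that of Chrna1os without CDAHFD_Advanced replicate 3 (-1.05), that of A930001C03Rik in 6 of the 14 fits without 1 library (1.04 to 1.26), that of F630040K05Rik in 5 (-1.13 to -1.01) and that of 9030625G05Rik in 11 (-1.57 to -1.17). With the spread from the compared groups alone, these last 5 differences also missed the threshold (adjusted p = 0.051 to 0.076, edgeR).

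In mild disease against control, 244 peaks (15.7%) rose and 184 (11.8%) fell on the FPC diet, against 15.1% and 13.5% of all peaks. On the CDAHFD 345 (22.2%) rose and 266 (17.1%) fell, against 21.1% and 19.5%. These shares lay near those of all peaks. Calls of more than 2-fold numbered 85 up (5.46%) and 27 down (1.74%) on the FPC diet and 122 up (7.84%) and 63 down (4.05%) on the CDAHFD, near the 5.67% and 2.23%, and 8.50% and 4.05%, of all peaks. Of the 10 largest advanced gains, Gm17746 on the FPC diet was the single one whose mild change did not pass the test. Of the 10 largest losses, Gm12440 (-0.36 ± 0.16, adjusted p = 0.10, edgeR), Gm10390 (-0.36 ± 0.17, 0.10) and Zfp652os (-0.15 ± 0.16, 0.51) did not pass it on the FPC diet, and all 10 did on the CDAHFD; Gm10390 passed it without FPC_Mild replicate 2 (-0.49). The mild FPC fall of A930013F10Rik (-0.66) was lost without FPC_Control replicate 1, 3 or 4 or FPC_Mild replicate 2 or 4 (-0.69 to -0.59) and with DESeq2 (-0.67, adjusted p = 0.12).

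Between mild and advanced mice of the FPC arm, 229 peaks (14.7%) rose and 165 (10.6%) fell, against 14.1% and 15.3% of all peaks. In the CDAHFD arm 161 (10.3%) rose and 94 (6.04%) fell, against 8.97% and 7.81%. The largest gains were Gm17746 (1.54 ± 0.24 and 1.2 ± 0.23), and, on the FPC diet, A730020M07Rik (1.36 ± 0.24), A630001O12Rik (1.16 ± 0.21) and Rap1gapos (1.12 ± 0.16), which starts 861 bp from Rap1gap. The largest losses were 4930482G09Rik on the FPC diet (-2.99 ± 0.19), A930013F10Rik, BB218582 (-1.75 ± 0.27 on the FPC diet) and Gm12718 (-1.52 ± 0.22 and -1.48 ± 0.26). On the CDAHFD, Gldnos rose (0.96 ± 0.18) and 1600029I14Rik (-1.32 ± 0.26) and Zfp652os (-1.2 ± 0.20) fell. Gldnos had 7.78 to 10.8 CPM in mild mice, below both the controls (12.5 to 23.3) and the advanced mice (15.4 to 23.2) of the CDAHFD arm. Without FPC_Advanced replicate 2 the FPC shares were 9.38% and 4.88%, against 9.05% and 8.11% of all peaks. Without CDAHFD_Advanced replicate 2 the CDAHFD shares were 6.17% and 3.53%, against 5.93% and 4.12%. The lower share was 3.73% without CDAHFD_Advanced replicate 1 or CDAHFD_Mild replicate 1, against 4.56% and 4.75% of all peaks.

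The 2 control groups, on the low fat diet for 20 or 7 weeks, differed little. At 20 weeks 46 peaks (2.96%) were higher and 12 (0.771%) lower than at 7 weeks, against 2.08% and 0.632% of all peaks; length of feeding and the separate arms cannot be told apart. Tmem51os1, 6 bp from the start of Tmem51, had 8.90, 5.82, 10.2 and 7.61 CPM at 20 weeks and 5.08, 2.97, 3.32 and 3.56 at 7 weeks, with no overlap (1.15 ± 0.22, adjusted p = 0.0039, edgeR). It also rose in advanced mice of both arms (1.10 ± 0.20 and 2.13 ± 0.21). Further higher peaks were 4930509E16Rik (0.80), 9530027J09Rik (0.77) and Gm4876 (0.75), and lower ones A730020M07Rik (-0.93), Gm33174 (-0.64), 4933402C06Rik (-0.58) and 9530052E02Rik (-0.53, in the body of Irs2, an insulin signalling adaptor). Of the 8 fits that left out 1 control, the call was lost in 4 for Gm4876 (0.65 to 0.71) and in 5 each for A730020M07Rik (-0.93 to -0.77), 4933402C06Rik (-0.61 to -0.42) and 9530052E02Rik (-0.54 to -0.48), and in none for the other 4 peaks. With the spread from the control groups alone those 4 calls were lost too, and so was that of 9530027J09Rik (0.75, adjusted p = 0.078, edgeR). With the spread estimated from the 2 control groups alone the shares were 1.00% and 0.0668%, against 0.945% and 0.146% of all peaks. Leaving out FPC_Control replicate 1 or 3 took the higher share to 1.80% and 1.74%, against 1.23% and 1.25% of all peaks. The lower share was 0.193% to 0.450% without any 1 FPC control or CDAHFD_Control replicate 1, 3 or 4. Over all peaks it was 0.304% to 0.654% in the same fits.

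Where a gene had several peaks, they did not always move together. Of the genes with at least 2 called peaks, 34 of 174 on the FPC diet and 43 of 188 on the CDAHFD had peaks that rose and peaks that fell. The same count was not made for other genes, so whether these shares are usual cannot be told. The 3 genes that follow were chosen after their values were seen. At 6330415G19Rik, with 8 peaks, those 4339 and 2034 bp upstream rose on both diets (0.60 ± 0.13 and 0.39 ± 0.12; 0.70 ± 0.20 and 0.48 ± 0.18), while those 1344, 1564 and 4654 bp inside the gene fell on both (the last by -1.17 ± 0.18 and -0.87 ± 0.18). Of these 10 calls of 6330415G19Rik, 5 were lost when some single library was left out: 4339 bp upstream on the CDAHFD without CDAHFD_Advanced replicate 1 (0.30), 2034 bp upstream on the CDAHFD without CDAHFD_Control or CDAHFD_Advanced replicate 2 or 3 (0.32 to 0.48), 1344 bp inside on the FPC diet in 5 of 7 fits (-0.26 to -0.10) and under 6 of 8 other settings (-0.22 to -0.16) and on the CDAHFD without CDAHFD_Advanced replicate 2 or CDAHFD_Control replicate 4 (-0.23 to -0.22), and 1564 bp inside on the FPC diet without FPC_Advanced replicate 2 (-0.33). Platr4 had 5 peaks, of which 4 fell on the FPC diet and 2 on the CDAHFD, by as much as -0.69 ± 0.12 and -0.87 ± 0.17. Gt(ROSA)26Sor, a broadly open locus often used to insert transgenes, had 4 peaks; 2 rose on the FPC diet and 3 on the CDAHFD, with 0.29 ± 0.08 and 0.52 ± 0.07 at the start. For the other of the 2 on the FPC diet, the call was lost without FPC_Advanced replicate 2 or FPC_Control replicate 1 (0.17 to 0.20).

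The start peak of the nearest protein-coding gene was read wherever that peak lay more than 5000 bp from the noncoding RNA peak. Peaks higher on both diets had 119 such neighbours, of which 45 (37.8%) were higher on both and 3 (2.52%) lower on both, with median changes of 0.31 and 0.20. Peaks lower on both diets had 108 neighbours, of which 15 (13.9%) were higher and 12 (11.1%) lower on both, with medians of 0.08 and -0.03. Peaks called on neither diet had 151 neighbours, 42 (27.8%) higher and 8 (5.30%) lower. Over all 10979 protein-coding genes with a start peak the shares were 27.2% and 6.16%, with medians of 0.23 and 0.12. The share of neighbours that opened thus ran from 13.9% beside lost peaks to 37.8% beside gained ones; these counts are descriptions with no test.

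Motif letters were counted in the 393 RefSeq promoter windows that lie under a peak of the set, on both strands. The GC box GGGCGG was in 60.6% of these windows, against 35.7% of 32851 RefSeq windows and 16.3% of those of long noncoding RNAs as a whole. The AP-1 motif TGANTCA was in 5.6% (7.81% of all windows), TEAD GGAATG in 13.2% (14.7%) and the HNF4 motif CAAAGTCCA in 0.254% (0.475%). Windows under peaks higher on both diets (117) held the GC box in 69.2% and AP-1 in 7.69%, those under peaks lower on both (35) in 25.7% and 11.4%, and those under peaks called on neither (138) in 60.1% and 2.90%. Their base composition differed too: G and C made up 62.1% of the first, 54.1% of the second and 60.9% of the third. The Snhg8 stretch printed above is of the GC-rich kind and the Hnf4aos stretch is not. A match is a description and not a bound site.

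The most open peaks had small changes. The 6 with the highest level, A530072M11Rik, C630043F03Rik, 4632427E13Rik, Gm20753, 2810414N06Rik and Gm7008, all lie within 200 bp of their start. Of these, 4 fell slightly on the FPC diet: 4632427E13Rik (-0.26 ± 0.07), 2810414N06Rik (-0.24 ± 0.06), C630043F03Rik (-0.21 ± 0.06) and A530072M11Rik (-0.16 ± 0.07). The last of these was lost under 6 of 8 other settings tried with all libraries kept (-0.16 to -0.088) and in 6 of the 7 fits without 1 library (-0.18 to -0.11). None passed the test on the CDAHFD, where the changes lay between -0.13 and 0.10; C630043F03Rik passed it without CDAHFD_Advanced replicate 1 (0.15) or CDAHFD_Control replicate 4 (0.14). C630043F03Rik, 351 bp from the start of Tle1, differed between diets by 0.31 ± 0.08 (adjusted p = 0.039, edgeR), a call that was lost in 9 of the 14 fits without 1 library (0.27 to 0.33) and with the spread from the compared groups alone (0.29). The most open host of small nucleolar RNAs, Snhg8, had 73.6 to 80.1 CPM in FPC controls and 66.9 to 73.3 in advanced mice (-0.16 ± 0.07, adjusted p = 0.0503), and 64.6 to 69.8 against 65.1 to 80.9 on the CDAHFD (0.10 ± 0.07). Snhg8 passed the test without FPC_Control replicate 1 (-0.18) and, in the other direction on the CDAHFD, without CDAHFD_Advanced replicate 1 (0.17).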

How the data were processed

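ATAC-seq libraries from 22 mice were analysed as the authors' deposited table of un-normalized counts over fixed 200 bp peaks on mm10, whose values are estimated counts in steps of 0.5 (47.8% of values are not whole); they were rounded up to whole numbers. The tools named, per the submitters' notes on processing, are HOMER, SAMtools, DESeq2 and BWA (0.7.5a-r405); no source used here gives their roles. Gene types, regions and signed distances to a start are annotation values of the authors' deposited table, and peak positions are printed as it gives them.

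All 68827 peaks passed edgeR's low-count filter. They were fitted in R 4.3.3 with edgeR 4.0.16 (TMM scaling, quasi-likelihood test, 6 groups, all 22 libraries), with Benjamini-Hochberg adjustment over all peaks and a threshold of 0.05. A fold change is log2, and its SE is its size divided by the root of the F statistic. DESeq2 1.42.0, other scalings, filters, distance limits and left-out libraries were alternatives, and the fit was tested on simulated data. Running without a filter gave the same fit, so 1 of the 8 other settings with all libraries kept could change no call. No 2 libraries of a group agreed within sampling noise.

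The peaks and gene lists were chosen with earlier results of these data known. Peaks were named by fixed rules: the 10 largest gains and 10 largest losses shared by both diets without overlap of libraries, the 4 largest each way between diets, between controls and between mild and advanced mice, the 6 most open, and the peak nearest the start of each listed RNA. Promoter windows matched 658 genes with 1263 peaks by gene identifier and chromosome, and 420 peaks overlapped their window. Counting error and mouse-to-mouse spread both enter the SE.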

Additional observations from a re-analysis of the deposited data

Results flagged for a closer look

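In 59 named peaks, 236 groups of 4 libraries were examined for a library far from the other 3, and 6 groups had one; chance alone gives about 1 in 20. At Scarna17, CDAHFD_Control replicate 2 had 30.5 CPM against 13.6, 14.5 and 15.9, and CDAHFD_Mild replicate 3 had 29.8 against 18.5, 19.2 and 20.3. Without the former, the CDAHFD advanced change of Scarna17 passed the test, at 0.73 in place of 0.38. At Tug1, CDAHFD_Control replicate 4 had 36.1 CPM against 38.9, 38.9 and 39.3, and at Trp53cor1 the same library had 19.5 against 22.5, 22.5 and 22.9. At 2900097C17Rik, CDAHFD_Control replicate 2 had 9.19 CPM against 7.20, 7.46 and 7.47. At 4930482G09Rik, FPC_Mild replicate 2 had 21.2 CPM against 22.6, 22.8 and 22.8, a small gap in a tight group.

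The advanced change differed between diets, by an interaction contrast in edgeR with adjusted p under 0.05, at 10 named peaks. Diet and length of feeding change together between the arms and cannot be told apart here. The change was more positive on the CDAHFD at Gm16157 (difference 2.16 in log2), 4930482G09Rik (1.83), Gm16796 (1.53), A930001C03Rik (1.27) and C630043F03Rik (0.31). It was more negative at 9030625G05Rik (-1.47), Gm32885 (-1.46), Chrna1os (-1.26), F630040K05Rik (-1.13) and Snhg4 (-0.72). With the spread from the compared groups alone, 6 of these 10 missed the threshold: Gm16796, A930001C03Rik, C630043F03Rik, 9030625G05Rik, Chrna1os and F630040K05Rik.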

How the results depend on the processing

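No paired analysis was possible because no mouse gave more than 1 library, and replicate numbers only name libraries. No named peak that passed the test in either fit changed direction under any alternative run. Among the summaries, the median difference between diets changed sign. It was 0.011 in the fit used above and turned negative with the nearest peak of each gene. With 1 library left out it ran from -0.0011 to 0.025. Of the summaries of the set, 295 values under other settings stayed within the limits set and 41 moved; of 1584 called values of named peaks under other settings, 1555 kept their call and 29 lost it, while of 736 uncalled ones 699 stayed uncalled and 37 gained a call (17 with upper-quartile scaling). Among the other settings, no filter gave the same fit, since all 68827 peaks passed the filter, so none of its values could change. A mean CPM of at least 2 kept 68761 peaks. With the spread from the compared groups alone, 6 of 10 named differences between diets and 6 of 9 between controls were lost. With 1 library left out, 1385 of 1501 called values kept their call and 116 lost it, and 20 of 683 uncalled ones gained one; 33 of the 198 called values lost theirs in at least 1 such fit, as given beside the results. The cause of each shift was not tested.

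The moved values were mostly medians. A median counted as moved when its shift reached the SD of the library medians between replicates of a group. A share counted as moved when it changed by more than 1.5-fold. The FPC advanced median was 0.088 with DESeq2, 0.088 with RLE scaling, 0.087 with the compared groups alone, 0.14 with upper-quartile scaling, 0.14, 0.11 and 0.017 with distance limits of 1000, 2000 and 10000 bp, 0.11 with the nearest peak of each gene, and 0.031 without starts that have a protein-coding start within 1000 bp, an alternative chosen after seeing the data. The CDAHFD advanced median was 0.093, 0.093, 0.091 and 0.13 under the same first 4 settings, and 0.11, 0.091 and 0.031 under the 3 distance limits. The FPC mild median was 0.068 with upper-quartile scaling. The CDAHFD mild median was 0.049 with library totals alone, 0.098 with upper-quartile scaling, and 0.065, 0.056 and 0.012 under the distance limits. The FPC median between mild and advanced mice was 0.078 with DESeq2, 0.077 with RLE scaling, 0.064 with counts in steps of 0.5 cut down, 0.064 with a mean CPM of at least 2, 0.075 with upper-quartile scaling, 0.080, 0.073 and 0.021 under the distance limits, 0.076 with the nearest peak, and 0.029 without the paired starts. The CDAHFD one was 0.058, 0.059 and 0.052 with DESeq2, RLE scaling and counts cut down, and its lower share was 3.82% within 1000 bp. The median difference between diets was -0.040 with the nearest peak. With the compared groups alone, 0.450% and 0.386% of peaks differed between diets, against 0.382% and 0.307% of all peaks. Between controls 1.00% and 0.0668% differed, against 0.945% and 0.146%.

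Leaving out 1 library at a time gave FPC advanced shares of 24.9% to 29.6% higher and 19% to 21.5% lower. Over all peaks these were 23.2% to 26.3% and 23.9% to 27.3%. The CDAHFD advanced shares were 25.9% to 29.4% and 21.0% to 22.5%, against 23.5% to 26.6% and 25.1% to 27.5% over all peaks. Between mild and advanced mice the shares ran from 9.38% to 15.7% and 4.88% to 9.83% on the FPC diet. All peaks had 9.05% to 14.5% and 8.11% to 13.9%. On the CDAHFD the shares ran from 6.17% to 10.8% and 3.53% to 5.78%, against 5.93% to 8.72% and 4.12% to 7.69% of all peaks. Between diets the shares of the set ran from 0.578% to 1.41% and 0.321% to 0.835%, against 0.513% to 1.22% and 0.315% to 0.796% of all peaks. Between controls they ran from 1.74% to 2.83% and 0.193% to 0.900%, against 1.23% to 1.96% and 0.304% to 0.725%. The medians ran from 0.041 to 0.077 (CDAHFD advanced), 0.020 to 0.034 (CDAHFD mild), 0.019 to 0.071 (FPC mild to advanced) and 0.0081 to 0.045 (CDAHFD mild to advanced).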
